A study of Mus musculus with 2 samples.

Results

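The C1q-positive tissue macrophages of the mouse ciliary body region were 576 of 9331 cells that passed quality filters in 2 droplet single-cell RNA libraries. They comprised 347 of 3865 cells in library 1 (8.98%, exact Clopper-Pearson 95% interval 8.10 to 9.92%) and 229 of 5466 cells in library 2 (4.19%, 3.67 to 4.75%). A cell was taken as a macrophage when it held at least 5 UMIs (unique molecular identifiers, each counting 1 captured RNA molecule) of C1qa, C1qb and C1qc together and at least 1 UMI of Csf1r, Cd68 and Mrc1 together. It could hold at most 1 UMI of the mast cell genes Cpa3 and Mcpt4 and none of the B and T cell genes Cd79a and Cd3e. The measured levels of these genes therefore chose the cells, and they are given below as a description with no test.

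Both libraries came from untreated wild-type C57BL/6 mice at postnatal day 35, with the ciliary epithelium dissected fresh, pooled and dissociated with collagenases and DNase. Library 1 pooled 3 sets of eyes, while the labels of library 2 give 3 sets in one place and 4 in another. The study has no treatment or genotype contrast, so the comparisons are between cell classes within the same libraries. A pool of animals is 1 sample. The library was a term of the fits, so a shift between pools common to all classes does not enter the p-values. They rest on how far differences between classes varied over the 2 pools, with the spread estimated over all classes fitted.

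Tissue macrophages are resident phagocytes that clear dying cells, digest them in lysosomes, recycle iron and lipid, and call in other leukocytes through chemokines. C1q, the recognition subunit of the classical complement pathway, is assembled from the products of C1qa, C1qb and C1qc and is made in tissues mainly by macrophages and microglia, the macrophages of the retina and brain. In the ciliary body and iris, macrophages lie in the stroma and along vessels beside dendritic cells, which present antigen on MHC class II.

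The C1q genes lie side by side on the minus strand of chromosome 4 in GRCm38, at chr4:136895917-136898803 for C1qa, chr4:136880129-136886187 for C1qb and chr4:136889804-136893065 for C1qc. The 250 bases before the RefSeq start (GRCm38.p6) are shown for C1qb and C1qc, which define the cells, and for the chemokine genes Pf4 and Ccl12, which separated macrophages from their nearest neighbours. Capitals mark GAGGAA, the core letters bound by the macrophage transcription factor that Spi1 encodes, or the reverse complement TTCCTC. Both strands were searched, and no other motif was. The windows are chr4:136886201-136886450 (minus strand) for C1qb, chr4:136892915-136893164 (minus strand) for C1qc, chr5:90772185-90772434 (plus strand) for Pf4 and chr11:82101595-82101844 (plus strand) for Ccl12.
C1qb: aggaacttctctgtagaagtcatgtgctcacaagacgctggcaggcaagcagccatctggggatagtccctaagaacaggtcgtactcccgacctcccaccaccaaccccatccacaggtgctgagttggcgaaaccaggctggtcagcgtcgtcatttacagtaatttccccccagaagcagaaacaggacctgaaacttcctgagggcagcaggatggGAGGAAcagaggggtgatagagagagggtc
C1qc: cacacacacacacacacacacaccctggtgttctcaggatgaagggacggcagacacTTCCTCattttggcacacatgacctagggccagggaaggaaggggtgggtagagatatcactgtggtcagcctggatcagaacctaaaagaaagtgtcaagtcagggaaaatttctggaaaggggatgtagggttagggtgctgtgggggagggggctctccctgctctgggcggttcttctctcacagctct
Pf4: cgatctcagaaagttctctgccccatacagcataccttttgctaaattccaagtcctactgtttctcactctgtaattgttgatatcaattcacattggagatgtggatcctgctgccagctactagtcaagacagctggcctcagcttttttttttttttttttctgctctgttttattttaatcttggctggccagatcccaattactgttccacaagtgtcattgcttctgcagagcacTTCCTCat
Ccl12: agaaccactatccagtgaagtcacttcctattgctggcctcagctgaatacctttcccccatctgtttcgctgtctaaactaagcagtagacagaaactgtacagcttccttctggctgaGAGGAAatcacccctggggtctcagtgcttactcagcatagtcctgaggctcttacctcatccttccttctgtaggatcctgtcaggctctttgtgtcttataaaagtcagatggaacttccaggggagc
Each of these windows held 1 match, which began 30 bases before the RefSeq start in C1qb, 193 in C1qc, 8 in Pf4 and 130 in Ccl12. The bases after the RefSeq start of C1qb were not found in its GENCODE transcripts. The C1qc window runs into the gene position given above, and C1qa had no RefSeq window. The motif is short and common. It was present in 7639 of 32851 windows of this length (23.3%), in 2814 of 12459 windows of genes tested here (22.6%) and in 500 of 1747 windows of genes that were higher in macrophages than in non-immune cells (28.6%). A match describes letters and is no evidence of binding.

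All 13 listed macrophage markers were detected in the macrophages of both libraries. C1qa had 6598 CPM (the gene's UMIs per 1000000 UMIs of the summed cells) in library 1 and 4661 CPM in library 2. Csf1r, the receptor for the macrophage growth factor CSF1, had 711 and 575 CPM, and the mannose receptor Mrc1 had 641 and 369 CPM. Pf4, a platelet and macrophage chemokine that the rule did not use, had 3093 and 1864 CPM. Markers that the rule did not use were thus present beside those it used, among them Pf4, Fcgr1, Cd14 and Mertk.

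Some genes that define other leukocytes were at 0 UMIs in both libraries, namely Pax5 of B cells, Ms4a2 of mast cells, Ly6g of neutrophils, Chil3 of monocytes and Ccr7 of migrating dendritic cells. Pax5 and Ly6g were also at 0 in every other cell class compared here, and Ms4a2 in all but the rods of library 2. These 0 values therefore do not set macrophages apart. Other markers of these lists were detected. The dendritic cell list summed to 254 and 228 CPM (14 and 12 of 15 markers detected), the monocyte list to 698 and 600 CPM (7 and 6 of 11) and the B cell list to 172 and 85.6 CPM (2 and 3 of 6). The neutrophil list summed to 22.1 and 30.5 CPM (3 and 7 of 9) and the mast cell list to 3.60 and 9.10 CPM (4 and 5 of 7). RNA of non-immune neighbours was present. Summed markers of rods had 425 CPM in macrophages of library 1 and 5090 CPM in those of library 2, and the fibroblast gene Dcn had 1244 and 1293 CPM. Of the macrophages, 30 of 347 in library 1 and 70 of 229 in library 2 also met the UMI threshold of rods, fibroblasts, pigmented cells, endothelium or T and NK cells, among them fibroblasts (15 and 11 cells) and rods (9 and 55 cells). No doublet caller was run, and the counts of macrophages and of called genes were repeated without these cells.

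C1q UMIs per cell ran over a broad range, in cells of unequal depth. Macrophages held 735 to 22779 UMIs in library 1 and 706 to 59323 in library 2. Summed C1q UMIs per cell ran from 5 to 329 in library 1 and from 5 to 524 in library 2. The median was 84 in both. Per 10000 UMIs of the cell, the C1q sum had a median of 174 in library 1 and 134 in library 2. Its quartiles were 131 to 219 and 86.2 to 183. Just inside the threshold, at sums of 5 to 7 UMIs, lay 4 and 6 cells. Just outside it, at 2 to 4 UMIs, lay 6 and 9 cells that met every other clause, and their summed Pf4 level was 40.7 and 0 CPM. A further 11 and 25 cells had at least 5 C1q UMIs but missed another clause. Few cells thus lay near the threshold. Macrophages held a median of 5174 UMIs per cell in library 1 and 6720 in library 2, against 4128 and 2968 over all cells that passed the filters.

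**Figure D1:**
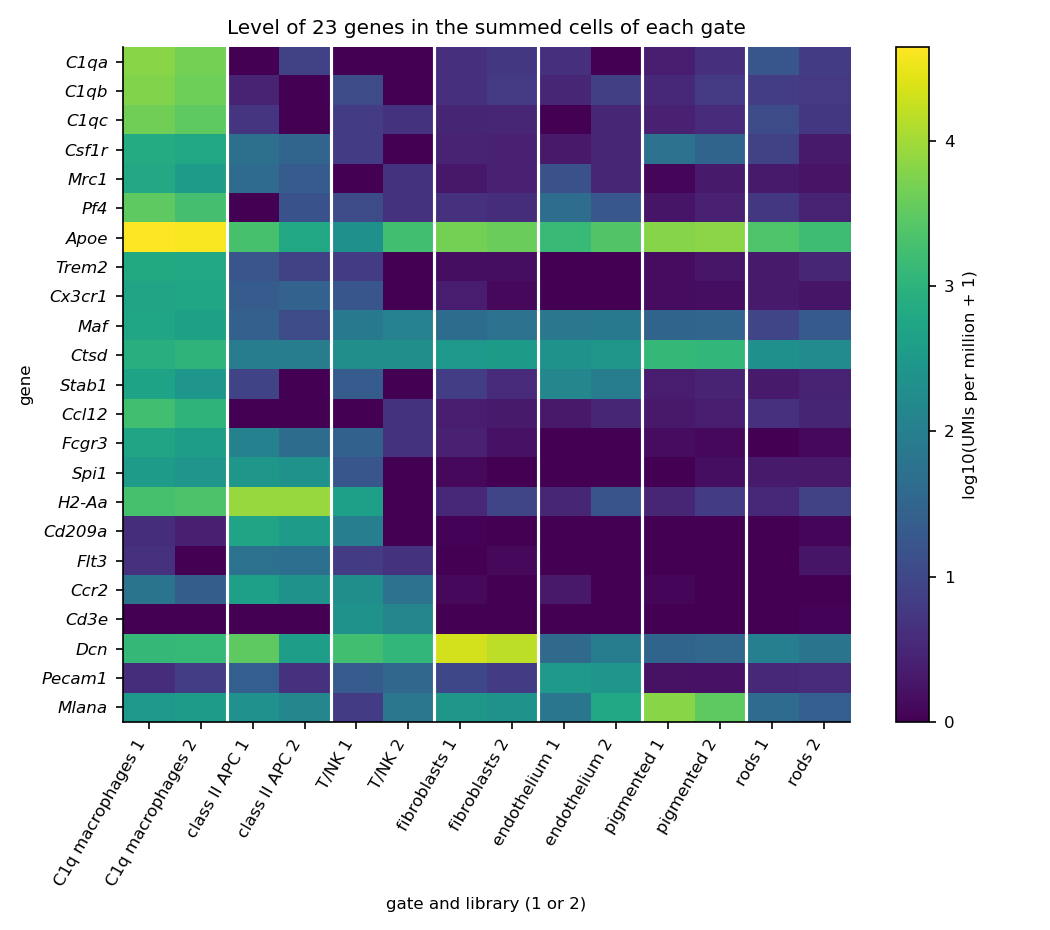
Levels of 23 genes (rows) in the summed cells of each cell class and library (columns), as log10(CPM + 1). C1qa, C1qb and C1qc chose the macrophages. They reach 6598, 5806 and 4412 CPM in macrophages of library 1 and 4661, 4233 and 3080 CPM in those of library 2. The other classes could hold at most 1 C1q UMI per cell, so their far lower levels follow from the choice.

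The nearest other myeloid cells were antigen-presenting cells rich in class II but without C1q, defined by at least 10 UMIs of H2-Aa, H2-Ab1 and H2-Eb1 and at most 1 UMI of C1q (64 and 39 cells, called class II APC here). Of the macrophages, 114 of 347 in library 1 and 102 of 229 in library 2 also reached this class II minimum. Against class II APC, macrophages were higher in 248 genes, 1.92% of 12939 tested, and lower in 139 genes (1.07%). A gene was called at an adjusted p below 0.05 and a log2 fold change of at least 1 in size, in edgeR's quasi-likelihood test on summed UMIs with the library as a block. All 248 and all 139 called genes had the same sign in each library taken alone. The calls came from these same libraries, so this follows largely from the calls and is no separate support. The same holds where called genes are said below not to overlap between classes. The median log2 fold change over all genes tested was 0.12, and 0.04 with genes at 0 UMIs on one side set at their bound.

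The complement genes that set macrophages apart outside C1q itself were receptors. The anaphylatoxin receptor C3ar1 had 242 and 225 CPM in macrophages, against 0 and 3.51 CPM in class II APC. The ratio rests on 1 UMI and was 186 (95% counting interval 33.4 to 7368, adjusted p = 0.00125). The related receptor C5ar1 had 119 and 152 CPM in macrophages, against 1.95 and 0 CPM in class II APC (ratio 108, 19.2 to 4257, adjusted p = 0.00158). No overlap was seen between the classes for either receptor. These were the 2 genes called among 15 tested of the complement list, none was lower, and the list's median was 0.56.

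Of 25 chemokine and cytokine ligands, 10 were higher (Pf4, Ccl3, Ccl4, Ccl7, Ccl8, Ccl12, Ccl24, Cxcl1, Cxcl2 and the cytokine Il1a). Ccl5 alone was lower, and the list's median was 1.79. The tissue had been dissociated with enzymes, and the part of this in these levels was not tested. A list of 22 dissociation response genes had a median of 0.42 in this contrast, beside 0.12 over all genes. Ccl12, a monocyte-attracting chemokine of the mouse, had 1738 and 1036 CPM in macrophages, against 0 and 0 CPM in class II APC. It was at least 370-fold higher, a bound set against a floor of 3 UMIs over both libraries (adjusted p = 8.86e-06). Macrophages carried it in both libraries and class II APC in neither. Its neighbour Ccl8 had 363 and 405 CPM in macrophages, against 0 and 0 CPM in class II APC (at least 102-fold higher, adjusted p = 0.0042). Ccl8 came from 52 of 347 macrophages in library 1 and 27 of 229 in library 2, against 7 of 1118 and 15 of 542 fibroblasts, and 1 macrophage of library 2 supplied 261 of its 756 UMIs.

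Ccl7, another monocyte attractant, had 319 and 432 CPM in macrophages, against 7.81 and 56.2 CPM in class II APC (log2 fold change 4.34 ± 0.94, SE, adjusted p = 0.0255). The 4 genes Ccl2, Ccl7, Ccl12 and Ccl8 lie in this order on the plus strand of chromosome 11, from chr11:82035571-82037453 for Ccl2 to chr11:82115185-82116799 for Ccl8. Ccl2 itself missed the threshold, with a log2 fold change of 3.23 ± 0.88 and an adjusted p of 0.0797. Pf4 had 3093 and 1864 CPM in macrophages, against 0 and 14.1 CPM in class II APC (8.80 ± 0.75, adjusted p = 9.45e-05). The inflammatory cytokine Il1b was not called, at 182 and 667 CPM in macrophages and 324 and 618 CPM in class II APC, and the classes overlapped (adjusted p = 0.747).

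Chemokine and cytokine receptors were divided, with 6 of 20 higher (Cx3cr1, Ccr1, Tgfbr1, Tgfbr2, Il10rb and Il21r), 2 lower (Ccr2 and Ccr7) and a median of 1.21. Cx3cr1, the fractalkine receptor of macrophages and microglia, had 505 and 546 CPM in macrophages, against 21.5 and 28.1 CPM in class II APC (4.41 ± 0.47, adjusted p = 0.000474). The transforming growth factor beta receptor Tgfbr2 had 149 and 125 CPM in macrophages, against 37.1 and 14.1 CPM in class II APC (2.30 ± 0.36, adjusted p = 0.00382). Both were higher in each library with no overlap. Ccr2, by which monocytes leave the marrow and enter tissue, went the other way, with 59.1 and 22.5 CPM in macrophages, against 416 and 246 CPM in class II APC (−3.17 ± 0.30, adjusted p = 0.000236).

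Lysosomal genes were the list with the most calls, 15 of 24 higher and none lower, with a median of 1.56. They included the proteases Ctsa, Ctsb, Ctsc, Ctsd, Ctsl, Ctsz and Lgmn, the hexosaminidase chain Hexa, the membrane proteins Lamp1 and Lamp2, and Grn, Lipa, Asah1 and Lyz2. Ctsd, cathepsin D, had 854 and 1042 CPM in macrophages, against 87.8 and 91.3 CPM in class II APC (3.33 ± 0.26, adjusted p = 5.03e-05). Ctsb, cathepsin B, had 2151 and 1757 CPM in macrophages, against 256 and 176 CPM in class II APC (3.11 ± 0.32, adjusted p = 0.000236). The asparaginyl protease Lgmn had 1094 and 904 CPM in macrophages, against 109 and 134 CPM in class II APC (3.00 ± 0.28, adjusted p = 0.000142). None of the 3 proteases overlapped between the classes. Ctss, the cathepsin that trims the class II invariant chain, was not called (1.43 ± 0.39, adjusted p = 0.0809), nor were Ctsh, Psap and Npc2.

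Of the genes for scavenging and the uptake of dying cells, 7 of 19 were higher (Msr1, Stab1, Cd36, Mertk, Axl, Itgb5 and Clec4n), 1 was lower (the lectin Clec10a) and the median was 1.31. The scavenger receptor Stab1 had 490 and 272 CPM in macrophages, against 7.81 and 0 CPM in class II APC (6.29 ± 0.64, adjusted p = 0.000236). Mertk, a receptor for apoptotic cells that also serves the clearance of photoreceptor tips in the pigment epithelium, had 40.1 and 41.2 CPM in macrophages, against 1.95 and 3.51 CPM in class II APC. Its ratio rests on 2 UMIs in the class II APC and was 16.2 (4.41 to 135, adjusted p = 0.00184). Both genes were higher in macrophages in each library.

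Iron and haem genes were higher in 7 of 13 (Hmox1, Slc40a1, Fth1, Ftl1, Slc11a1, Blvrb and Cp) and lower in none, with a median of 1.42. Blvrb, a biliverdin and flavin reductase, had 598 and 349 CPM in macrophages, against 42.9 and 24.6 CPM in class II APC (3.71 ± 0.29, adjusted p = 5.03e-05). The iron exporter gene Slc40a1 had 50.3 and 31.6 CPM in macrophages, against 1.95 and 0 CPM in class II APC (ratio 32.8, 5.80 to 1304, adjusted p = 0.00868). The ferritin heavy chain gene Fth1 had 13364 and 11639 CPM in macrophages, against 5340 and 4040 CPM in class II APC (1.36 ± 0.25). The ranges of all 3 genes stood apart.

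Of 18 lipid-handling genes, 6 were higher (Apoe, Apoc1, Abca1, Trem2, Pla2g7 and Pla2g15) and none was lower, with a median of 1.29. Apoe, the lipid carrier apolipoprotein E, took more UMIs than any other gene in the macrophages of both libraries, a count not corrected for transcript length. It had 44075 and 39535 CPM in macrophages, against 1979 and 611 CPM in class II APC (4.89 ± 0.87, adjusted p = 0.00868). Trem2, a lipid-sensing receptor of macrophages, had 665 and 581 CPM in macrophages, against 15.6 and 7.03 CPM in class II APC (5.61 ± 0.44, adjusted p = 9.45e-05). Apoc1 had 96.1 and 126 CPM in macrophages and was at 0 in class II APC (at least 29.4-fold higher, adjusted p = 0.00145). These genes lay far apart between the classes in both libraries.

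Of 18 genes for secreted growth and matrix factors, 3 were higher and none was lower, with a median of 1.46. Sepp1, the selenium carrier now named Selenop, had 1620 and 1077 CPM in macrophages, against 152 and 77.3 CPM in class II APC (3.50 ± 0.35, adjusted p = 0.000236), and Igf1 and Igfbp4 were the other two. Igf1, a growth factor, had 145 and 101 CPM in macrophages, against 9.76 and 14.1 CPM in class II APC (3.37 ± 0.71, adjusted p = 0.0221). Matrix turnover genes were higher in 4 of 15 (Mmp13, Timp2, Plau and F13a1). The folate receptor Folr2, a marker of perivascular macrophages, had 147 and 65.3 CPM in macrophages and was at 0 in class II APC (at least 28.4-fold higher, adjusted p = 0.00533).

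Fc and signalling-adaptor receptors were higher in 5 of 19 (Fcgr1, Fcgr3, Fcgr4, Trem2 and Sirpa), pattern recognition genes in 3 of 19 (Tlr7, Tlr13 and the lipopolysaccharide co-receptor Cd14), and interferon response genes in 1 of 17 (Bst2). Cd14 had 539 and 573 CPM in macrophages, against 46.8 and 59.7 CPM in class II APC (3.35 ± 0.41, adjusted p = 0.00124). Of 26 transcription factors, 3 were higher. Maf, which maintains mature macrophages, had 556 and 436 CPM in macrophages, against 25.4 and 10.5 CPM in class II APC (4.59 ± 0.49, adjusted p = 0.000297). The myeloid factor Cebpa had 64.7 and 80.8 CPM in macrophages, against 17.6 and 21.1 CPM in class II APC (1.83 ± 0.41, adjusted p = 0.0323). Spi1, needed by all myeloid cells, had 367 and 260 CPM in macrophages and 287 and 242 CPM in class II APC, with overlapping values (0.18 ± 0.38, adjusted p = 0.911).

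Class II pathway genes and markers of monocytes were lower in macrophages than in class II APC. The class II genes that defined the comparison are described only, with H2-Aa at 1984 and 2189 CPM in macrophages, against 8595 and 8420 CPM in class II APC. Of 9 class II pathway genes outside the definition, 4 were lower (H2-DMb1, H2-DMb2, H2-Oa and H2-Ob) and none higher, with a median of −2.19. The class II APC had been chosen high in genes of this pathway and the macrophages had not, so the direction of the list is not independent of the choice. H2-DMb1, a chain of the peptide-loading molecule DM, had 233 and 185 CPM in macrophages, against 1130 and 710 CPM in class II APC (−2.19 ± 0.35, adjusted p = 0.00503). The invariant chain gene Cd74 was not called (−1.59 ± 1.17, adjusted p = 0.619).

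The monocyte-derived dendritic cell lectin Cd209a had 3.08 and 1.61 CPM in macrophages, against 523 and 348 CPM in class II APC (−7.67 ± 0.70, adjusted p = 0.000297). S100a4, a calcium-binding protein of motile leukocytes, had 95.03 and 33.2 CPM in macrophages, against 1624 and 1005 CPM in class II APC (−4.48 ± 0.45, adjusted p = 0.000236). Tmsb10, an actin-binding thymosin, had 737 and 588 CPM in macrophages, against 5092 and 5262 CPM in class II APC (−3.03 ± 0.33, adjusted p = 0.000353). All 3 genes were lower in macrophages in both libraries without overlap. Over the marker lists, 6 of 8 monocyte markers and 8 of 15 dendritic cell markers were lower, while 7 of 8 microglia markers and 8 of 12 border macrophage markers were higher. The dendritic cell list had 1 gene higher, Siglech, which the microglia list shares. Macrophages had been chosen for C1q, and class II APC for class II and little C1q. The direction of these marker lists, and of other genes carried together with C1q, is therefore not independent of the choice.

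The limits of this contrast lie on both sides, since the class II APC were few and both classes were mixed with other RNA. Dcn had 1244 and 1293 CPM in macrophages and 3123 and 397 CPM in class II APC, and the part of neighbouring RNA in the calls was not tested. Without the macrophages that met another threshold, 361 genes in place of 248 were higher and 296 in place of 139 were lower. Without the library as a block, 95 genes were higher and 56 lower. The first of these alternatives left out macrophages only, 30 of 347 in library 1 and 70 of 229 in library 2. Of the class II APC, 10 of 64 and 8 of 39 also met another threshold and were kept, and the part of this in the count was not tested.

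**Figure D2:**
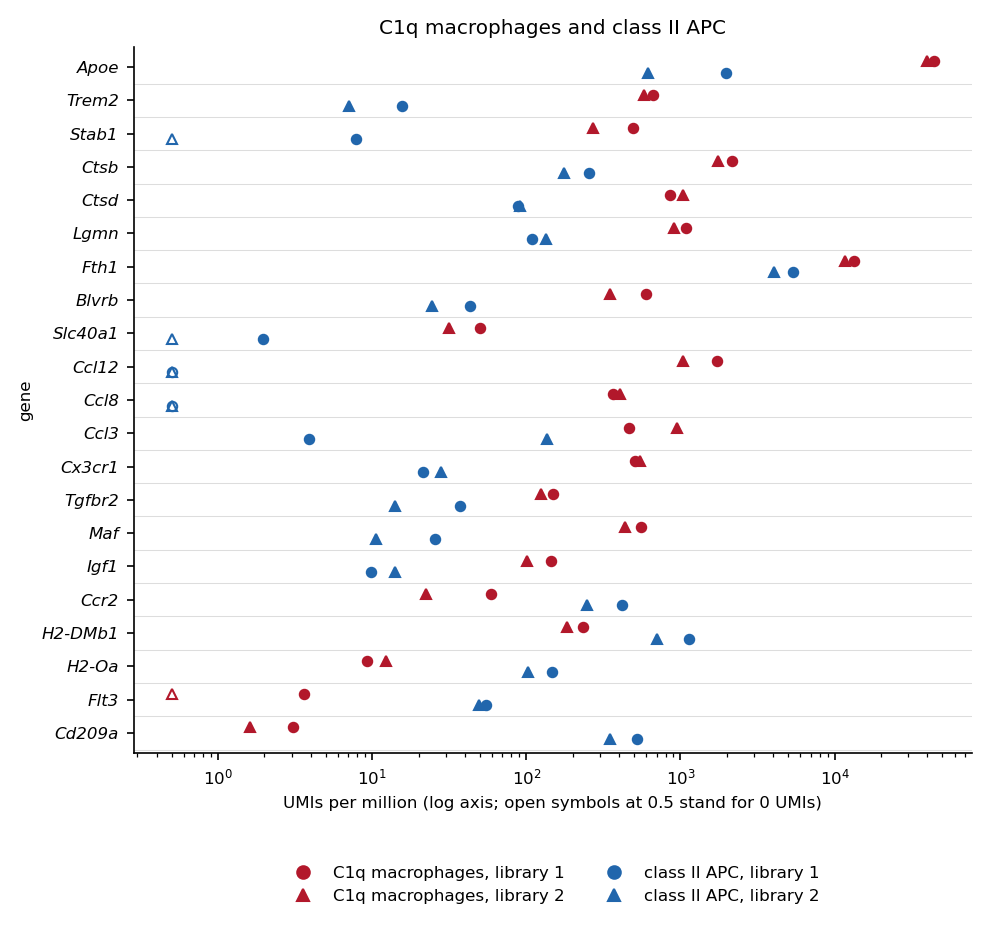
CPM (log axis) of 21 genes in C1q macrophages (red) and class II APC (blue), with circles for library 1 and triangles for library 2 and open symbols at 0.5 for 0 UMIs. Ctsd stands at 854 and 1042 CPM in macrophages and 87.8 and 91.3 CPM in class II APC, and Cd209a is placed the other way round.

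**Figure D3:**
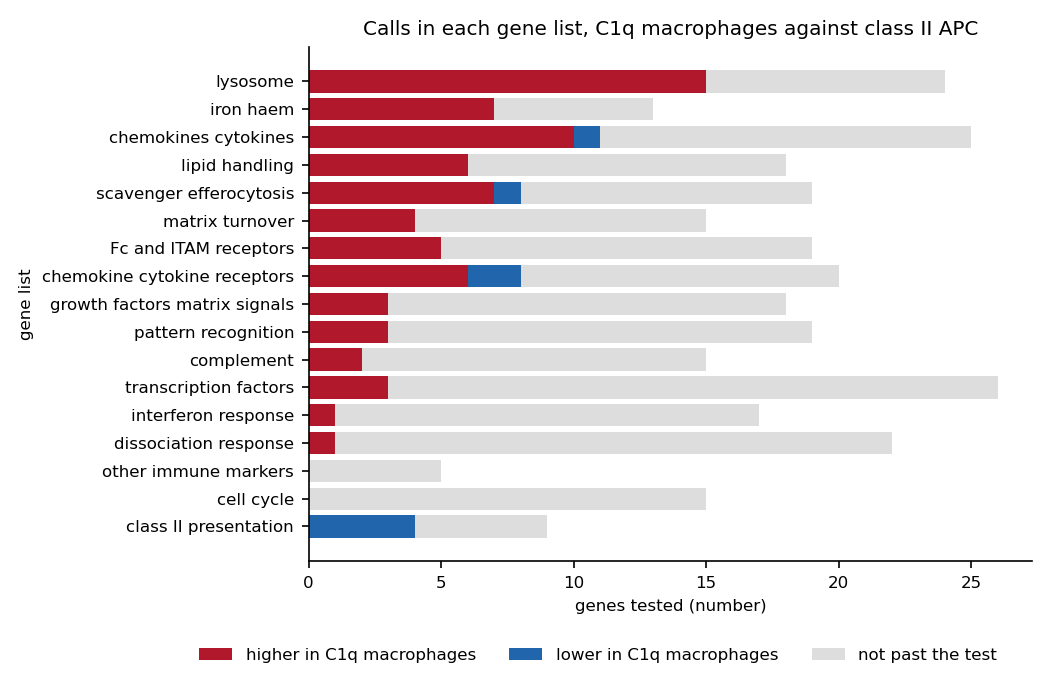
Number of genes tested in each of 17 gene lists that were higher (red), lower (blue) or not past the test (grey) in C1q macrophages against class II APC. The lysosome list holds 15 higher genes of 24, and class II presentation is the list with 4 lower genes and none higher.

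Against the mean of fibroblasts (1118 and 542 cells), endothelium (123 and 60), pigmented cells (613 and 521) and rods (414 and 2036), macrophages were higher in 1852 of 12930 genes (14.3%) and lower in 1001 (7.74%), with a median log2 fold change over all genes of −0.09. Of the 1852 higher genes, 1838 had the same sign in both libraries, which are those that gave the calls. The non-immune cells had been required to hold no Ptprc UMI and at most 1 C1q UMI, so low levels of leukocyte genes in them partly follow from the choice. The contrast covers these classes only. It leaves out class II APC, T and NK cells, and 1130 and 1970 cells that fell in no class. All 19 Fc and signalling-adaptor receptors, 23 of 25 chemokines and cytokines, 19 of 20 of their receptors, 17 of 19 pattern recognition genes, 21 of 24 lysosomal genes and 12 of 12 class II pathway genes were higher, and none of these lists had a lower gene.

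Gpr34, a lysophospholipid receptor known from microglia, had 225 and 136 CPM in macrophages, against at most 1.18 CPM in any non-immune class. Those classes held 3 UMIs in all, and the ratio was 2072 (706 to 10071, adjusted p = 8.13e-09). The Fc receptor gene Fcgr3 had 519 and 401 CPM in macrophages, against at most 1.63 CPM elsewhere (11.05 ± 0.31, adjusted p = 4.16e-10). Lyz2, lysozyme, had 10052 and 6214 CPM in macrophages, against at most 18.7 CPM elsewhere (10.12 ± 0.24, adjusted p = 1.26e-10). Each of the 3 was near 0 in all 4 non-immune classes. Apoe was not, since pigmented cells held 6423 and 6925 CPM and fibroblasts 4666 and 3970 CPM, and its log2 fold change was 4.12 ± 0.50 (adjusted p = 4.31e-05). Sepp1 was at 1620 and 1077 CPM in macrophages, against 1646 and 802 CPM in pigmented cells, where the classes overlapped.

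Among complement genes, 9 of 15 were higher, including C3ar1, C5ar1, the receptor chain Itgam and properdin Cfp, and 1 was lower. That gene was Cd59a, which shields cells from the terminal complement complex, with 4.62 and 16.1 CPM in macrophages, against 41.4 and 41.6 CPM in fibroblasts and 174 and 102 CPM in endothelium (−2.60 ± 0.49, adjusted p = 0.00164). Mfge8, a bridge between dying cells and phagocytes, was also lower, with 29.3 and 49.2 CPM in macrophages, against 583 and 277 CPM in endothelium (−1.78 ± 0.33, adjusted p = 0.00136). The metalloproteinase inhibitor Timp3 had 144 and 361 CPM in macrophages, against 1633 and 2217 CPM in fibroblasts (−1.46 ± 0.34, adjusted p = 0.00673). For these genes each non-immune class named lay above the macrophages in both libraries.

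Genes of the pigmented cells were among the lower ones. Rpe65, the visual-cycle isomerase of pigment epithelium, had 0.514 and 4.81 CPM in macrophages, against 537 and 507 CPM in pigmented cells (−3.08 ± 0.81 against the mean of all non-immune classes, adjusted p = 0.0138). Slc1a1, a glutamate transporter, had 1.03 and 3.21 CPM in macrophages, against 150 and 131 CPM in pigmented cells (−3.21 ± 0.39, adjusted p = 4.14e-05). The macrophages were the low class for both genes. The count of lower genes was 1954 without the macrophages that met another threshold and 500 without the library as a block.

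Macrophages differed among themselves in class II. The sum of H2-Aa, H2-Ab1 and H2-Eb1 per 10000 UMIs of the cell was 0 in 155 of 347 macrophages of library 1 and 85 of 229 of library 2, with a median of 2.20 and 3.87 and a maximum of 557 and 435. After a small microglia-marker group was set aside (below), macrophages with a sum of at least 20 per 10000 were called class II-high and the rest class II-low. Class II-high cells were 110 of 347 (31.7%, exact 95% interval 26.8 to 36.9%) and 89 of 229 (38.9%, 32.5 to 45.5%), and class II-low cells were 211 (60.8%) and 110 (48.0%). The groups are ranges of a measured level and not cell types, since 36 and 23 macrophages lay between 10 and 40 per 10000.

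Class II-high macrophages were higher than class II-low ones in 3 of 11604 genes (0.0259%) and lower in 1 (0.00862%). At an unadjusted p below 0.05 the counts were 287 and 284. Ccr2 had 158 and 54.4 CPM in class II-high macrophages, against 6.24 and 0 CPM in class II-low macrophages (5.16 ± 0.51, adjusted p = 0.00147). Its UMIs came from 23 of 110 and 9 of 89 class II-high cells, against 4 of 211 and 0 of 110 class II-low cells. Among fibroblasts, which should lack the receptor, 2 of 1118 and 0 of 542 cells carried a UMI at median depths of 5887 and 6221 UMIs, against 5174 and 6720 for macrophages. Ccr2 was thus seen in a minority of class II-high cells. Without the library as a block, no gene was called higher.

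Plbd1, a phospholipase B-like gene of myeloid cells, had 147 and 104 CPM in class II-high macrophages, against 13.4 and 6.68 CPM in class II-low macrophages (3.81 ± 0.44, adjusted p = 0.00183). H2-DMb1 had 518 and 382 CPM in class II-high macrophages, against 58.8 and 51.2 CPM in class II-low macrophages (3.16 ± 0.36, adjusted p = 0.00183). Both genes were also higher in class II APC than in macrophages as a whole, and neither overlapped between the groups. All 9 class II pathway genes tested lay above 0, with a median of 1.87 over the list and −0.01 over all genes, although H2-DMb1 was the single one called. The groups had been drawn on H2-Aa, H2-Ab1 and H2-Eb1, so the direction of H2-DMb1 and of this list is not independent of the choice. S100a4 (2.73 ± 0.52, adjusted p = 0.117) did not pass the test. Cxcl9 had 314 and 78.0 CPM in class II-high macrophages, against 0 and 2.23 CPM in class II-low macrophages, and did not pass either (adjusted p = 0.0653).

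The 1 lower gene was Tnmd, a gene of fibrous tissue, with 2 UMIs in class II-high macrophages and 150 in class II-low macrophages (ratio 48.7, 13.2 to 406). These came from 7 and 3 class II-low cells, with 88.5% of the library 2 UMIs in 1 cell, and Tnmd was carried by 342 of 1118 and 173 of 542 fibroblasts. Its call was lost when macrophages that met another threshold were left out. Summed fibroblast markers were 1094 and 580 CPM in class II-high macrophages, against 3010 and 2786 CPM in class II-low macrophages, with 0 of 7 markers above 0 in log2 fold change and none called. Endothelial markers had 6 of 7 above 0 (median 1.75), red cell markers 5 of 5 (median 1.59) and dendritic cell markers 9 of 13 (median 1.10), again with none called. Their sums were 47.5 and 221 CPM in class II-high macrophages, against 51.7 and 122 CPM in class II-low macrophages, for endothelium. For red cells they were 9989 and 57.4 CPM in class II-high macrophages, against 3722 and 50.1 CPM in class II-low macrophages. For dendritic cells they were 334 and 203 CPM in class II-high macrophages, against 183 and 186 CPM in class II-low macrophages. The part of these markers in the comparison was not tested.

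The border macrophage genes Mrc1, Cd163, Lyve1 and F13a1, typical of perivascular and meningeal macrophages, ran over both groups. Their sum per 10000 UMIs had a median of 3.53 and 2.38 in class II-high macrophages, against 8.95 and 9.20 in class II-low macrophages, and reached 49.3 and 43.0 in class II-high cells and 123 and 73.6 in class II-low cells. The ranges overlapped, and no test was made because these genes were used to draw the groups. Lyve1, a hyaluronan receptor, had 22.2 and 51.5 CPM in class II-high macrophages, against 122 and 258 CPM in class II-low macrophages. It was carried by 58 of 347 and 56 of 229 macrophages, against 3 of 1118 and 6 of 542 fibroblasts. Timd4, a phosphatidylserine receptor of long-lived resident macrophages, was carried by 44 and 20 macrophages and by 0 of 1118 and 0 of 542 fibroblasts.

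**Figure D4:**
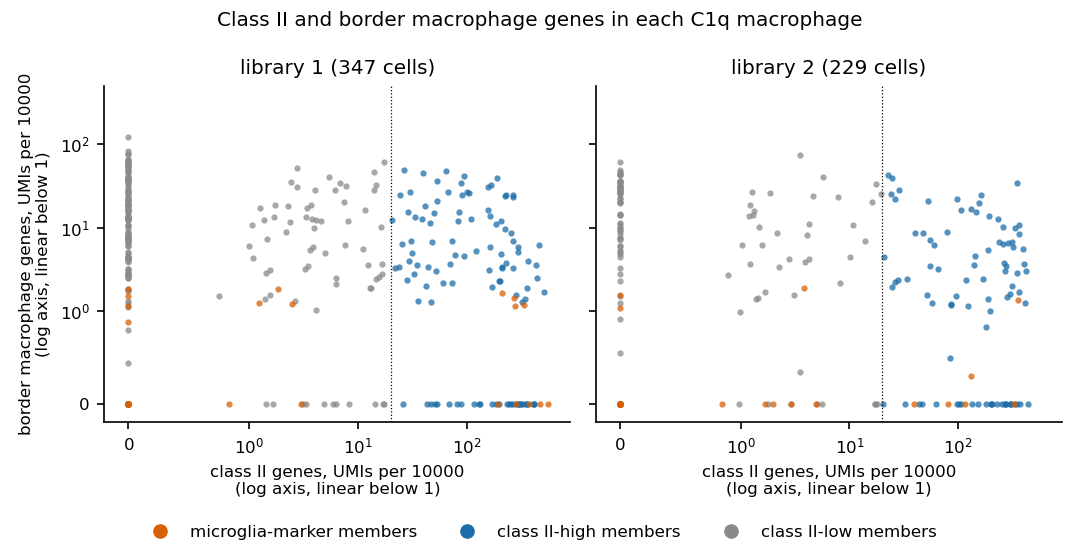
Each point is 1 macrophage of library 1 (left, 347 cells) or library 2 (right, 229 cells), placed by its UMIs per 10000 of 3 class II genes (x) and 4 border macrophage genes (y), on log axes that are linear below 1. Orange marks the microglia-marker, blue the class II-high and grey the class II-low macrophages, and the dotted line is the threshold of 20 that separates blue and grey.

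The libraries also held rods (414 and 2036 cells), and the C1q rule does not separate microglia of the retina from macrophages of the ciliary body. Macrophages with at least 3 UMIs of P2ry12, Tmem119 and Siglech and at most 1 UMI of Mrc1, Cd163, Lyve1 and F13a1 were taken as the microglia-marker group, 26 of 347 in library 1 (7.49%, exact 95% interval 4.95 to 10.8%) and 30 of 229 in library 2 (13.1%, 9.02 to 18.2%). The threshold is fine-grained, with 11 and 9 of these cells at exactly 3 UMIs and 11 and 8 further macrophages at 2 UMIs. Another 17 and 13 cells had at least 3 UMIs of microglia genes together with 2 or more of border genes. Tmem119 is not specific to microglia in this tissue, because fibroblasts held 99.5 and 81.8 CPM of it.

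The genes that drew the group are described only. Tmem119 had 378 and 241 CPM in microglia-marker macrophages, against 62.4 and 18.9 CPM in class II-low macrophages. P2ry12, the purinergic receptor that steers microglial processes, had 191 and 231 CPM in microglia-marker macrophages, against 57.0 and 32.3 CPM in class II-low macrophages. The microglial transcription factor gene Sall1, which the rule did not use, had 9 UMIs in 5 cells of library 1 and 5 UMIs in 4 cells of library 2, all in the microglia-marker group, and none in other macrophages, class II APC or fibroblasts. Against class II-low macrophages it did not pass the test (adjusted p = 0.204).

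Microglia-marker macrophages were higher than class II-low macrophages in 9 of 11604 genes (0.0776%) and lower in 20 (0.172%), and at an unadjusted p below 0.05 in 430 and 564. Selplg, a selectin ligand listed among microglial genes, had 269 and 272 CPM in microglia-marker macrophages, against 55.3 and 46.7 CPM in class II-low macrophages (2.55 ± 0.32, adjusted p = 0.00408). Golm1, a Golgi membrane gene, had 124 and 89.6 CPM in microglia-marker macrophages, against 9.80 and 17.8 CPM in class II-low macrophages (3.08 ± 0.57, adjusted p = 0.0384). The groups did not overlap for either gene.

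Smad7, an inhibitor of transforming growth factor beta signalling, had 109 and 307 CPM in microglia-marker macrophages, against 16.9 and 52.3 CPM in class II-low macrophages (2.78 ± 0.49, adjusted p = 0.0294). The tetraspanin Cd81 had 1991 and 1943 CPM in microglia-marker macrophages, against 941 and 734 CPM in class II-low macrophages (1.39 ± 0.26, adjusted p = 0.0396). The junctional adhesion gene F11r had 259 and 210 CPM in microglia-marker macrophages, against 80.2 and 38.9 CPM in class II-low macrophages (2.18 ± 0.39, adjusted p = 0.0294). All 3 were higher in both libraries. H2-DMb1 was also called, at 310 and 134 CPM in microglia-marker macrophages, against 58.8 and 51.2 CPM in class II-low macrophages, which were chosen for low class II. Of these cells, 9 of 26 and 6 of 30 held at least 20 class II UMIs per 10000. Of 7 microglia markers tested, none was called and 6 lay above 0, with a median of 1.32, beside −0.10 over all genes. The group had been chosen high in P2ry12, Tmem119 and Siglech, so the direction of this list is not independent of the choice. Microglia-marker macrophages held a median of 7481 and 8251 UMIs per cell, against 4845 and 6811.5 in class II-low macrophages.

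Among the lower genes were those of border and perivascular macrophages, with 5 of 9 border markers outside the definition called lower (Folr2, Pf4, Stab1, Dab2 and Clec4n) and none above 0. The list's median was −3.57, or −2.40 with genes at 0 on one side set at their bound, beside −0.10 over all genes. Pf4 had 408 and 148 CPM in microglia-marker macrophages, against 4029 and 2720 CPM in class II-low macrophages (−3.57 ± 0.49, adjusted p = 0.00596). Stab1 had 171 and 37.9 CPM in microglia-marker macrophages, against 668 and 403 CPM in class II-low macrophages (−2.40 ± 0.45, adjusted p = 0.0399). Folr2 had 5.17 and 3.44 CPM in microglia-marker macrophages, against 137 and 77.9 CPM in class II-low macrophages (ratio of class II-low to microglia-marker 26.8, 7.33 to 223). The microglia-marker group had been chosen low in 4 genes of this kind, so the direction of the list is not independent of the choice.

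Lyz2, Ccl12 and Ifitm3 were lower too. Lyz2 had 2979 and 2494 CPM in microglia-marker macrophages, against 10825 and 7294 CPM in class II-low macrophages (−1.55 ± 0.28, adjusted p = 0.0294). Ccl12 had 279 and 348 CPM in microglia-marker macrophages, against 1978 and 1188 CPM in class II-low macrophages (−2.13 ± 0.33, adjusted p = 0.0165). The antiviral membrane gene Ifitm3 had 496 and 427 CPM in microglia-marker macrophages, against 1815 and 1665 CPM in class II-low macrophages (−1.78 ± 0.35, adjusted p = 0.0456). All 3 stood apart in both libraries. Few UMIs lay behind the lectin Clec4a1 (ratio of class II-low to microglia-marker 31.5, 8.63 to 261) and the NAD-consuming enzyme Cd38 (32.1, 5.66 to 1276). Without the library as a block, 0 genes were higher and 2 lower, and Clec4a1 and the lysosomal acetyltransferase Hgsnat were the named genes whose calls held under every alternative tried.

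Other RNA also differed between these groups. Summed fibroblast markers were 1784 and 5488 CPM in microglia-marker macrophages, against 3010 and 2786 CPM in class II-low macrophages, and 1 cell supplied 74.2% of the Dcn UMIs of the group in library 1 and 1 cell 52.4% in library 2. Summed pigment markers were 124 and 289 CPM in microglia-marker macrophages, against 1274 and 4625 CPM in class II-low macrophages. The part of this RNA in the calls was not tested.

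**Figure D5:**
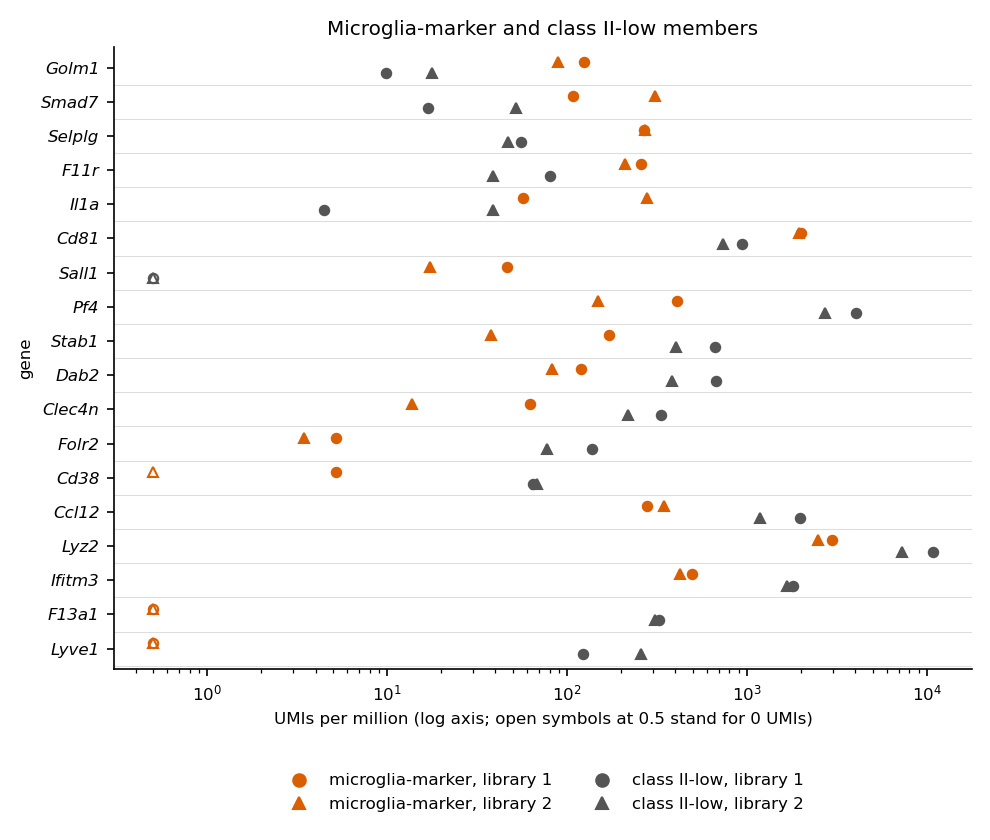
CPM (log axis) of 18 genes in microglia-marker (orange) and class II-low (grey) macrophages, with circles for library 1 and triangles for library 2 and open symbols at 0.5 for 0 UMIs. Selplg is at 269 and 272 CPM in the microglia-marker group and 55.3 and 46.7 CPM in the class II-low group, Pf4 is placed the other way, and Lyve1 and F13a1, at 0 in the microglia-marker group, were used to draw it.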

How the data were processed

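Single-cell RNA libraries were made from 2 pools of dissected mouse ciliary epithelium and sequenced on an Illumina NovaSeq, per the labels' protocols. The authors deposited raw UMI counts per gene and barcode, made with Cell Ranger 3.1.0 per the file headers. CASAVA 1.8, Cell Ranger, Seurat, mm10 and GRCm38 are named in the submitters' processing notes, which give no roles. Each library came with a second matrix that differed in 0 entries. The deposited tables hold 4764 and 6220 barcodes, with 22510387 and 30683405 UMIs, a minimum of 500 UMIs per barcode and 33456 genes, and the filter behind them is not given in the sources used here. The libraries share 11 barcodes, none of them a macrophage of both.

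Only barcodes in which 500 or more genes were detected and mitochondrial UMIs made up no more than 30% were used. Cell classes were drawn by UMI thresholds on a few genes, with no clustering and no doublet caller. Non-immune classes needed 0 Ptprc UMIs, at most 1 C1q UMI and at least 5 (endothelium) or 20 UMIs (fibroblasts, pigmented cells, rods) of their marker genes. T and NK cells needed at least 2, and mast cells (6 and 7 cells) were left out of the fits. Every macrophage was counted once, and shares of UMI-positive cells are not thinned for depth. The macrophages, gene lists and thresholds were chosen with earlier results of these data known. The classes were chosen on genes of the same cells, so a gene used in the rule or in the thresholds of either side was not tested.

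UMI counts were summed per class and library and fitted with edgeR 4.0.16 in R 4.3.3 (quasi-likelihood test, TMM, filterByExpr), with class and library as terms and Benjamini-Hochberg adjustment over all genes tested. The first fit held 7 classes and the second, with macrophages divided into 3 groups, held 9. Each of the 2 libraries is 1 pool, and classes of a library come from the same animals, so library was a block. Deviations of classes of the same library correlated at 0.0493 to 0.668 across genes. Genes were named by rule: the 10 largest called log2 fold changes per direction with at least 50 UMIs in each library of the higher side (20 within macrophages), and up to 4 called genes per list. Genes given as not called, the C1q threshold neighbours, Sall1, Lyve1, Timd4 and Tmem119 are descriptions chosen beside it. Genes with 1 to 3 UMIs on one side are given as ratios with exact intervals, and genes at 0 as bounds at 3 UMIs. These intervals cover counting error only. Alternatives were DESeq2 1.42.0, RLE scaling, no low-count filter, no library block, only the compared classes, and other thresholds. Promoter windows and gene positions come from RefSeq (GRCm38.p6) and GENCODE annotation, in which 32655 of 33456 gene identifiers were found.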

Additional observations from a re-analysis of the deposited data

How the results depend on the processing

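No named gene changed direction under any alternative run. Against class II APC, genes higher in macrophages numbered 248, and 361 without macrophages that met another threshold. Higher genes numbered 522 with no filter on low counts, 95 with no replicate block (the library term) and 504 with only the compared classes. Genes lower numbered 139, and 296 without macrophages that met another threshold, 229 with DESeq2, 262 with no filter, 56 with no replicate block and 261 with only the compared classes. Against non-immune classes, 1001 genes were lower, and 1954 without macrophages that met another threshold and 500 with no replicate block.

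Class II-high macrophages had 3 higher genes than class II-low ones, and 14 with DESeq2, 69 with no filter, 33 with only the compared classes and 0 with no replicate block (287 of the genes passed an unadjusted p of 0.05 in the fit as reported). The 1 lower gene became 12 with DESeq2, 97 with no filter, 46 with only the compared classes, 0 at a microglia minimum of 2 UMIs and 0 without macrophages that met another threshold, at a minimum of 15 cells. In the microglia-marker comparison 9 genes were higher, and 39 with DESeq2, 102 with no filter, 38 with only the compared classes, 34 at a minimum of 2 UMIs and 0 with no replicate block. The 20 lower genes became 39 with DESeq2, 126 with no filter, 58 with only the compared classes and 2 with no replicate block. The cause of these shifts was not tested. The class II-high share of library 1 was 31.7%, and 26.2% at a class II threshold of 40.

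Of the named genes, 37 of 61, 71 of 81, 0 of 4 and 2 of 22 kept their call under every alternative in the 4 comparisons, in the order given here. The microglia-marker test was not run at a minimum of 5 UMIs (11 and 15 cells) or without Tmem119 (8 and 20 cells). Leaving out 1 library leaves no replicate and gives values only. Alternatives without Tmem119 and with a minimum of 15 cells were chosen after seeing the data.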

Other observations

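A few macrophages carried cell-cycle transcripts. At least 5 UMIs of 9 cycle genes were present in 13 of 347 macrophages of library 1 (3.75%, exact 95% interval 2.01 to 6.32%) and 11 of 229 of library 2 (4.80%, 2.42 to 8.43%), against 0 of 1118 fibroblasts of library 1 and 2 of 542 of library 2. These cells held 92.9% and 91.2% of all UMIs of the 9 genes in macrophages, at median depths of 9632 and 11157 UMIs, above the class medians of 5174 and 6720. The mitotic genes Birc5 and Ube2c were higher in macrophages than in the mean of the non-immune classes in edgeR's quasi-likelihood test. Birc5 had 68.8 and 56.2 CPM in macrophages, against 0.629 and 1.18 CPM in fibroblasts (log2 fold change 7.64 ± 0.81, adjusted p = 2.17e-05), and Ube2c had 81.7 and 64.7 CPM in macrophages, against 0.251 and 1.18 CPM in fibroblasts (6.71 ± 0.82, adjusted p = 4.63e-05). Against class II APC, 0 of 15 cycle genes were called in either direction. In class II APC 3 of 64 and 6 of 39 cells reached the same number of UMIs.

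Most globin RNA in the macrophages of library 1 came from a pair of cells. Hbb-bs had 6981 UMIs there in 87 cells, of which 3488 lay in 1 cell and 2681 in another, and in library 2 it had 63 UMIs in 55 cells. Interferon response genes leaned one way in the microglia-marker comparison, with 16 of 17 below 0 and a median log2 fold change of −1.16 (−1.10 with genes at 0 UMIs on one side at their bound), beside −0.10 over all genes, but Ifitm3 alone was called. Spp1, which encodes osteopontin, had 42.8% of its macrophage UMIs of library 2 in 1 cell.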
